A study of Homo sapiens with 2 samples.

Results

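The replication-dependent histone genes are the multicopy genes for the core histones H2A, H2B, H3 and H4 and the linker histone H1 whose mRNAs are made for DNA replication. Members were taken by symbol, as every gene that starts with HIST1H, HIST2H, HIST3H or HIST4H, which gave 71 of the 33538 genes in the count matrices. The mRNAs of these genes typically end at a conserved stem-loop that binds SLBP, the stem-loop binding protein, and carry no poly(A) tail, and they accumulate in S phase and are degraded when replication ends. Replacement histones such as H2A.Z and H3.3 are instead made from polyadenylated mRNAs throughout the cell cycle. The libraries were primed on poly(A), so the questions were which members were captured at all, at what level in each line, and at which point of the cell cycle. H2AFZ, H2AFX, H3F3A and H3F3B served as the replacement set for comparison. H2AFX, which encodes H2A.X, is known to give both a stem-loop mRNA and a polyadenylated mRNA.

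CHLA9 and TC71 are established Ewing sarcoma cell lines, and each was profiled once as 3′ single-cell RNA-seq with unique molecular identifiers (UMIs). CHLA9 cells were grown in IMDM with 20% FBS and a supplement of insulin, transferrin and selenium, and TC71 cells in RPMI with 10% FBS. The CHLA9 library was sequenced on HiSeq and NovaSeq instruments and the TC71 library on HiSeq alone, so line, medium and sequencing cannot be told apart. With 1 library per line there were no replicates, cells were not used as replicates, and no p-values were computed. A barcode was kept as a cell if it held 5000 UMIs or more, 2000 genes or more and no more than 15% of UMIs from mitochondrial genes. This left 4524 of 5077 CHLA9 barcodes, with 174975302 UMIs in all and a median of 34656 UMIs and 6532 genes per cell. In TC71 it left 1729 of 8468 barcodes, with 58355173 UMIs and a median of 33370 UMIs and 6047 genes per cell. Levels are summed UMIs scaled to the total of the line (CPM) with exact 95% Poisson intervals, shares have exact Clopper-Pearson intervals, and both cover counting error only. Since each captured molecule counts once, levels of different genes compare captured molecules and need no correction for length. A count of 3 UMIs, taken as the limit that a count of 0 allows, was worth 0.0171 CPM in CHLA9 and 0.0514 CPM in TC71.

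The labelled cell type was checked first. All 8 Ewing sarcoma markers reached 1 CPM in both lines, with a summed level of 4364 CPM in CHLA9 and 2584 CPM in TC71. CCND1, encoding cyclin D1, was the most abundant of them. Of 4 blood markers CD68 alone reached 1 CPM, at 1.23 CPM in CHLA9 and 1.85 CPM in TC71, while CD3E and HBB had 0 UMIs in both lines. Neither endothelial marker reached 1 CPM, and VWF had 0 UMIs in both lines. The epithelial marker EPCAM stood at 0.0457 CPM in CHLA9 and 1.25 CPM in TC71, while CDH1 had 1 UMI in each. The fibroblast list also differed between the lines: 4 of its 4 genes reached 1 CPM in CHLA9, summing to 278 CPM and led by COL1A2, and 3 of 4 in TC71, summing to 14.3 CPM and led by COL1A1, with none at 0 UMIs. The part of these genes in the differences between the lines described here was not tested.

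Captured replication-dependent histone mRNA made up a small but clearly measurable share of each library. The 71 members together held 399528 UMIs in CHLA9, a level of 2283 CPM or 0.228% of UMIs (95% interval 0.228 to 0.229), and 107112 UMIs in TC71, a level of 1836 CPM or 0.184% (0.182 to 0.185). The replacement set of 4 genes was captured at 5299 CPM in CHLA9 and 5037 CPM in TC71, or 2.32 and 2.74 times the members' sum. At least 1 CPM was reached by 48 members in CHLA9 and 36 in TC71, of which 35 were shared, 13 reached it in CHLA9 alone and 1, HIST4H4, in TC71 alone. Among all genes 13552 reached it in at least 1 line and 11508 in both, and the others are not divided by line here. In each line 3 members exceeded 100 CPM, and 10 in CHLA9 and 16 in TC71 reached 10 CPM. At the other end, 5 members in CHLA9 and 9 in TC71 had 0 UMIs. HIST1H3D, HIST1H2BA, HIST1H4F, HIST1H4G and HIST1H4K had none in either line, which allows at most the limits given above except for HIST1H4K, whose reads may not be told from those of HIST1H4J, and HIST1H2BA is known as a testis histone gene. The median member was captured at 1.83 CPM in CHLA9 and 1.20 CPM in TC71, so most of the family sat far below the replacement genes.

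**Figure D1:**
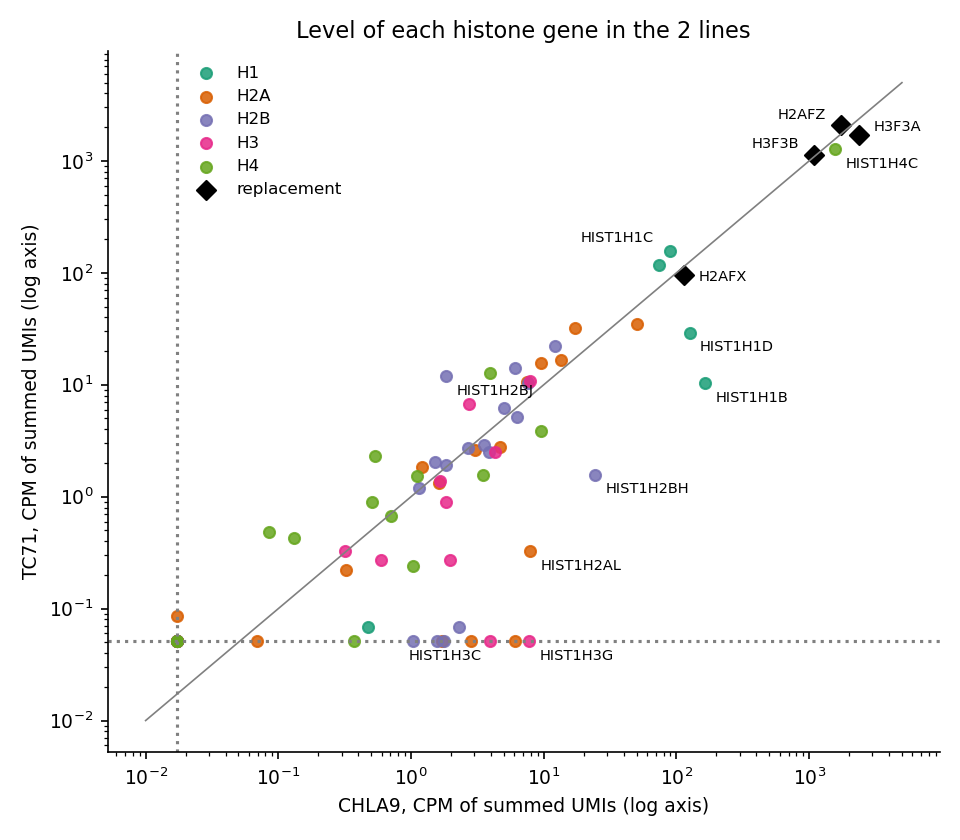
Level of each of the 71 replication-dependent histone genes (circles, coloured by histone) and of the 4 replacement histone genes (black diamonds) in CHLA9 and TC71, as CPM of summed UMIs on log axes, with 1 library per line. Dotted lines mark the level of 3 UMIs (0.0171 and 0.0514 CPM), at which lower values are drawn, and HIST1H4C lies among the replacement genes while HIST1H3C and HIST1H3G lie at the TC71 limit.

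A single gene accounted for most of the captured molecules. HIST1H4C (ENSG00000197061, chr6:26103933-26104337 on the plus strand of GRCh38), which encodes histone H4, stood at 1562 CPM (1557 to 1568) in CHLA9 and 1268 CPM (1259 to 1277) in TC71. That was 68.4% of member UMIs in CHLA9 (68.3 to 68.6) and 69.1% in TC71 (68.8 to 69.4). The 5 most abundant members held 88.3% and 87.7% of member UMIs, and the 10 most abundant 93.5% and 93.1%. Without HIST1H4C the family's level was 721 CPM in CHLA9 and 567 CPM in TC71. Of the other 14 H4 genes, the next most abundant, HIST1H4E in CHLA9 and HIST1H4H in TC71, had 1654 and 741 UMIs against 273390 and 74005 for HIST1H4C.

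The 3′ ends of the members were read from GRCh38 with the GENCODE 44 annotation, which is not the annotation the authors counted with. Of the 71 members, 66 matched by gene identifier and 5 by an older symbol. The stem-loop was searched for within 400 bases after an annotated stop codon as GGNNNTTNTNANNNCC, on the coding strand, with at least 5 of 6 stem positions paired. All 71 members held it, 69 of them with a full stem of 6 pairs, and HIST1H2AG and HIST1H2AK with 5. The same motif and pairing rule, searched in the last 160 bases alone, found it in 115 of 88877 protein-coding transcripts, or 0.129%. Histone transcripts were not removed from these, so this share is not a background free of the members. The stem-loops of 4 members are shown because capture and timing differed between their genes. Stem bases are in capitals and the loop of 4 bases in lower case, and in HIST1H2AG 5 of the 6 stem positions are paired.
HIST1H4C, chr6:26104317-26104332, plus strand: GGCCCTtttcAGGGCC
HIST1H1B, chr6:27866797-27866812, minus strand: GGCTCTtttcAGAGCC
HIST1H2BD, chr6:26158587-26158602, plus strand: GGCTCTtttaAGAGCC
HIST1H2AG, chr6:27133515-27133530, plus strand: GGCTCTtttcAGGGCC
The element itself therefore did not separate abundant from scarce members, since all 71 had it.

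Adenine-rich stretches were examined because poly(A) priming needs a run of adenines in the RNA. In each member's mRNA, ended at its stem-loop, the 20-base window with the most adenines was taken, a window length chosen after the data were seen. HIST1H4C held 18 adenines of 20, in a window that lies in its 3′ UTR and ends 6 bases before the stem-loop. In the other 70 members the richest window held 7 to 13, with a median of 10 over the family, and a window of at least 18 occurred in the last 160 bases of 604 of the 88877 protein-coding transcripts, or 0.680%. The windows of HIST1H4C, of its fellow H4 gene HIST1H4E, of the linker histone gene HIST1H1D and of HIST2H2AC, the most abundant H2A gene, show the contrast, with adenines in capitals.
HIST1H4C, chr6:26104291-26104310, plus strand, 3′ UTR: AAAAAAcAAAAAcAAAAAAA
HIST1H4E, chr6:26204868-26204887, plus strand, coding: AgcAcgccAAAcgcAAgAcA
HIST1H1D, chr6:26234471-26234490, minus strand, coding: gAAgAAAAgcAtcAAAAAgA
HIST2H2AC, chr1:149887345-149887364, plus strand, coding: AcAAAgccAAAAgcAAAtAA
The richest windows of the other 14 H4 genes held 8 to 10 adenines. Across the 53 members annotated to end at the stem-loop, Spearman's rho between the adenine count and CPM was 0.46 in CHLA9 and 0.38 in TC71. Over all 71 members it was 0.39 and 0.31. These values are descriptions across genes that share a library and a base composition and are not independent. Whether priming inside the transcript produced the HIST1H4C molecules was not tested, since read positions were not analysed here.

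**Figure D2:**
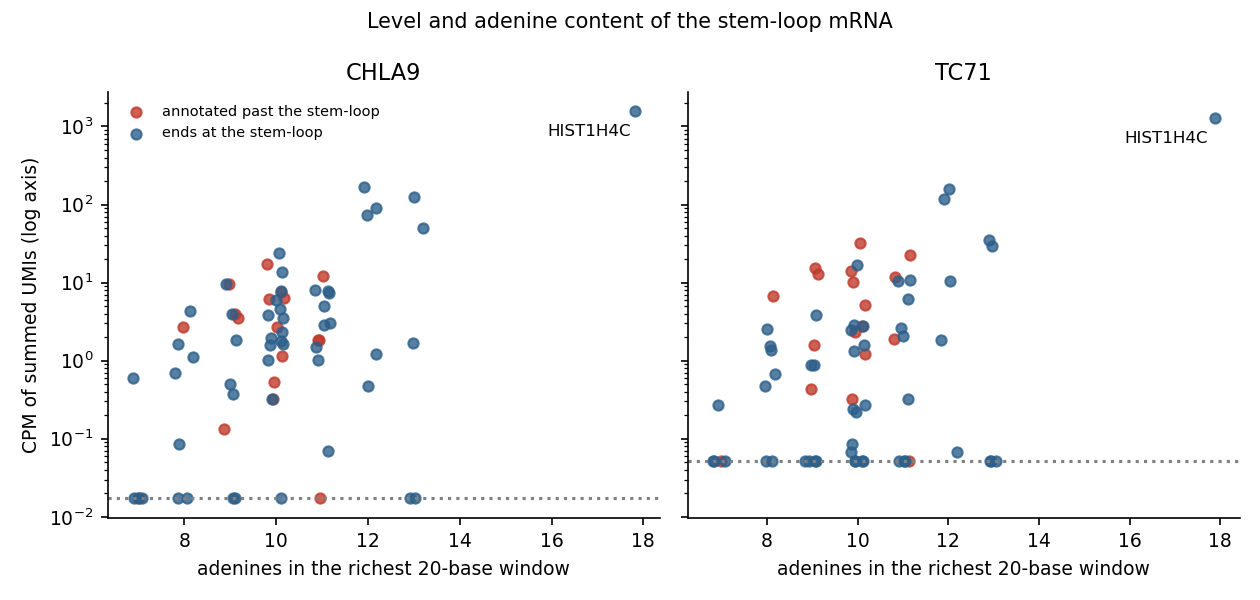
CPM of summed UMIs (log axis) of each of the 71 members against the number of adenines in its richest 20-base window, in CHLA9 and TC71, with points spread sideways for legibility and the dotted line at the level of 3 UMIs. HIST1H4C, with 18 adenines, is alone at the upper right, and members annotated to end at the stem-loop (blue) and past it (red) span 7 to 13 elsewhere.

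By histone, H4 led through HIST1H4C and the linker histones came next. The 15 H4 genes summed to 1584 CPM in CHLA9 and 1293 CPM in TC71, the 6 H1 genes to 455 and 315 CPM. The 17 H2A genes summed to 127 CPM in CHLA9 and 119 CPM in TC71, the 18 H2B genes to 84.5 and 85.1 CPM, and the 15 H3 genes to 33.1 and 23.3 CPM. H3 and H4 enter the nucleosome in equal amounts, whereas the captured molecules of their genes differed by more than an order of magnitude, so these sums are not histone supply. The leading H2A gene was HIST2H2AC in both lines, at 50.4 CPM in CHLA9 and 34.6 CPM in TC71, whereas the leading H3 gene was HIST1H3B, at 7.94 and 10.8 CPM. In H1 and H2B the leading gene differed: HIST1H1B and HIST1H2BH in CHLA9, and HIST1H1C and HIST1H2BC in TC71.

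Summed over all cells the family was captured at a modestly lower level in TC71, while many single members differed more. The direction was the opposite for the median cell, with a member share of 0.0585% in CHLA9 and 0.107% in TC71, and within G1 cells, at 465 and 1216 CPM. The log2 ratio of the summed family, TC71 to CHLA9, was -0.31 (-0.32 to -0.31). The median log2 ratio of the 7516 genes with at least 10 CPM in both lines was itself -0.16, and relative to that median gene the family stood at -0.15. The H1 sum stood at -0.37 relative to the median gene, the H3 sum at -0.35 and the H4 sum at -0.13. For H2A the direction depended on this scaling, with a log2 ratio of -0.10 that became 0.06, and for the replacement set likewise, from -0.07 to 0.09, while the H2B sum had a log2 ratio of 0.01 with an interval across 0 (-0.04 to 0.06), or 0.17 relative to the median gene.

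A member was called different when the lines differed at least 2-fold with intervals apart and at least 1 CPM in one of them, and 49 members with at least 1 CPM in one line could be tested in this way. In all, 18 members were called higher in CHLA9, 36.7% of those tested against 19.8% of all 13552 genes tested, and 5 higher in TC71, 10.2% against 13.9% of all genes. The remaining 26 were not called, among them HIST1H4C, and the members' median log2 ratio was -0.29 against -0.20 for all genes tested. Relative to the median gene the counts were 16 and 7. HIST1H3F and HIST2H4B then fell short of 2-fold, and HIST1H2AC and HIST1H2BC passed it. Of all calls, 58.8% were higher in CHLA9 before this scaling and 49.9% after it, and of the members' calls 78.3% and 69.6%. This lean rested on the 13 members that reached 1 CPM in CHLA9 alone, all of them called. Among the 35 members with at least 1 CPM in both lines, a comparison added after the data were seen, 5 were higher in CHLA9 and 4 in TC71 (14.3% and 11.4%, against 16.2% and 7.57% of 11508 genes), and relative to the median gene 4 and 6. This minimum itself removes members low in 1 line, the 13 among them, so these counts describe the 35 alone and not the family's lean.

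Among the linker histone genes the order of levels differed between the lines. HIST1H1B, encoding H1.5, stood at 165 CPM (163 to 167) in CHLA9 and 10.4 CPM (9.59 to 11.3) in TC71, a log2 ratio of -3.99 (-4.11 to -3.87), or -3.83 relative to the median gene. HIST1H1D, encoding H1.3, stood at 126 CPM in CHLA9 and 29.1 CPM in TC71, a log2 ratio of -2.11 (-2.18 to -2.04). Both were called higher in CHLA9. HIST1H1C, encoding H1.2, went the other way without reaching 2-fold, at 89.3 CPM in CHLA9 and 157 CPM in TC71 (log2 0.82, 0.78 to 0.85). HIST1H1E, encoding H1.4, likewise stood at 73.9 and 118 CPM (log2 0.68). HIST1H1B was thus the most abundant linker gene in CHLA9 and HIST1H1C in TC71. The testis linker gene HIST1H1T had 83 and 4 UMIs and HIST1H1A 3 and 1, both short of 1 CPM and so not compared.

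Core histone genes showed the widest gaps. HIST1H2BH stood at 24.2 CPM in CHLA9 and 1.58 CPM in TC71, a log2 ratio of -3.94 (-4.26 to -3.64). HIST1H2AL stood at 7.90 and 0.326 CPM, a log2 ratio of -4.60 (-5.34 to -3.95). HIST1H3G had 1351 UMIs in CHLA9 and 2 in TC71, a log2 ratio of -7.82 with the wide interval of -10.86 to -5.96 that 2 counts allow. Several members were thus well captured in CHLA9 and close to undetected in TC71. HIST1H2AE had 1062 UMIs in CHLA9 and 1 in TC71 (log2 -8.47, -13.77 to -5.99). HIST1H3C had 694 UMIs in CHLA9 and 0 in TC71, which made it at least 77.2-fold lower in TC71 against the limit of 3 UMIs, and HIST1H2BB had 310 and 0, at least 34.5-fold lower. In total 8 members reached 1 CPM in CHLA9 with at most 3 UMIs in TC71, whereas 0 members did the reverse. No share of all genes is given for this rule, so the counts do not set the members apart.

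These 8 members lay at 4 places on chromosome 6, mostly beside one another, a description made after the data were seen. Counted along the chromosome, HIST1H2AB, HIST1H2BB and HIST1H3C were consecutive (order 8 to 10, chr6:26033092-26045869), with 494, 310 and 694 UMIs in CHLA9 and 2, 0 and 0 in TC71. The next member, HIST1H1C, had 15619 and 9173 UMIs. HIST1H2AE, at chr6:26216921-26217437, had 1062 UMIs in CHLA9 and 1 in TC71. Its divergent neighbour HIST1H2BG, with 403 and 4 UMIs, is not among the 8. The divergent pair HIST1H3G and HIST1H2BI at chr6:26270918-26273412 had 1351 and 274 UMIs against 2 and 1. A further divergent pair, HIST1H2AJ and HIST1H2BM at chr6:27814302-27815489, had 298 and 180 UMIs in CHLA9 and 1 and 2 in TC71. Several neighbouring genes were thus near the limit in TC71 together. Of the flanking members some were well captured in TC71, such as HIST1H4H with 741 UMIs and HIST1H3H with 389. Others were less so, such as HIST1H2BH with 92, HIST1H4J with 39 and HIST1H3E with 19. Unlike HIST1H2BH, HIST1H4J and HIST1H3E were about as low in CHLA9, at 0.703 and 0.320 CPM against 0.668 and 0.326 CPM in TC71. HIST1H2AJ shares 49.5% of its terminal 91-base windows with HIST1H2AI, so its count is less certain. Further along, HIST1H2AL, HIST1H1B, HIST1H3I and HIST1H4L (order 49 to 52) were lower together, with 1382, 28939, 346 and 65 UMIs in CHLA9 and 19, 607, 16 and 1 in TC71. The cause of these low counts, including a difference in DNA between the lines, was not tested.

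Higher levels in TC71 were smaller in size and number. HIST1H2BJ, an H2B gene, stood at 1.83 CPM in CHLA9 and 11.9 CPM in TC71, a log2 ratio of 2.69 (2.50 to 2.89). HIST1H4H stood at 3.91 and 12.7 CPM (log2 1.70, 1.55 to 1.85), HIST1H3H at 2.73 and 6.67 CPM (log2 1.29, 1.09 to 1.49), and HIST1H2BN at 6.12 and 14.1 CPM (log2 1.21, 1.07 to 1.34). The fifth, HIST4H4, the H4 gene on chromosome 12, stood at 0.537 and 2.33 CPM (log2 2.12, 1.73 to 2.51). It is named because the count is small, after its value was seen. HIST1H2AC, at 17.1 CPM in CHLA9 and 32.2 CPM in TC71, came next with a log2 ratio of 0.91 (0.83 to 1.00), short of 2-fold unless taken relative to the median gene, where it was 1.07. The same held for HIST1H2BC, at 12.2 and 22.4 CPM (log2 0.88, relative 1.04). HIST3H2A, at 9.57 and 15.6 CPM (log2 0.70), and HIST1H2AG, at 13.6 and 16.8 CPM (log2 0.31), leaned the same way without a call.

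What the 5 members higher in TC71 shared was their annotated 3′ end. In 18 of the 71 members a transcript in GENCODE 44 runs more than 30 bases past the stem-loop, and in 53 every annotated transcript ends within 18 bases of it. This division was made after the data were seen. The furthest annotated end lay from 430 bases past the stem-loop in HIST1H2BE to 37155 bases in HIST1H2BC. Of the 14 tested members annotated past the stem-loop, 5 were called higher in TC71 and 1, HIST2H4B, higher in CHLA9, and the latter was not called relative to the median gene. Of the 35 tested members that end at the stem-loop, 0 were higher in TC71 and 17 higher in CHLA9, but 13 of these 17 reached 1 CPM in CHLA9 alone. Of all genes tested 13.9% were higher in TC71 and 19.8% in CHLA9, or 16.2% and 16.1% relative to the median gene. The median log2 ratio was 0.79 in the members annotated past the stem-loop and -0.77 in the others, or 0.95 and -0.61 relative to the median gene. Among members with at least 1 CPM in both lines the contrast was smaller: 4 of 13 past the stem-loop were higher in TC71 and 1 in CHLA9, against 0 and 4 of 22 that end at it, with median log2 ratios of 0.70 and -0.27, or 0.86 and -0.11 relative to the median gene. Summed levels ran from 77.5 CPM in CHLA9 to 142 CPM in TC71 in the former (log2 0.87, 0.83 to 0.91), and from 2206 to 1694 CPM in the latter (log2 -0.38, -0.39 to -0.37). At a fold of 1.5 in place of 2, 8 members annotated past the stem-loop and 3 that end at it were higher in TC71. In CHLA9 1 and 20 were higher, and no share of all genes is given at this fold. Which 3′ end the captured molecules had was not measured.

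**Figure D3:**
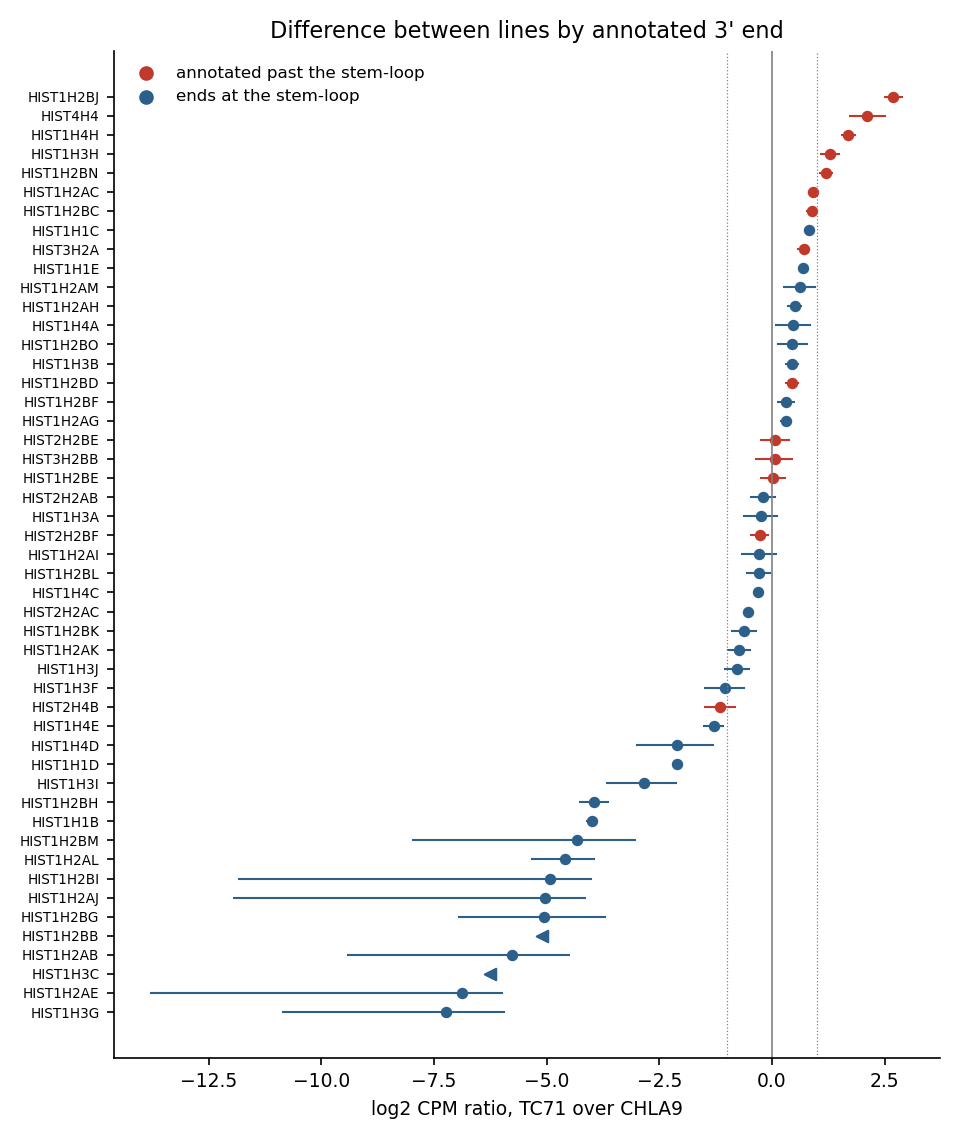
log2 ratio of CPM in TC71 to CPM in CHLA9 for the 49 members tested, with exact 95% intervals for counting error and dotted lines at a 2-fold difference; arrowheads mark HIST1H3C and HIST1H2BB, with 0 UMIs in TC71, as bounds against 3 UMIs, and points with 1 or 2 UMIs in TC71 are drawn at 3 UMIs. Members annotated past the stem-loop (red) hold the 5 calls higher in TC71 at the top, and 17 of the 18 calls higher in CHLA9 belong to members that end at the stem-loop (blue), 13 of which reach 1 CPM in CHLA9 alone.

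Some members cannot be separated by sequence. HIST2H4A and HIST2H4B, HIST2H3A and HIST2H3C, and HIST2H2AA3 and HIST2H2AA4 are copies that share 100% of the 91-base windows in their last 300 bases, and HIST1H4J and HIST1H4K share most of theirs. Their separate counts, such as 23 and 612 UMIs for HIST2H4A and HIST2H4B in CHLA9 and 25 and 92 in TC71, are therefore uncertain. The call of HIST2H4B as higher in CHLA9 is uncertain with them. In GENCODE 44 the long HIST1H2BC gene spans HIST1H1T on its own strand and HIST1H4C on the other, and HIST1H3J overlaps HIST1H2AM, so molecules from shared stretches are uncertain as well.

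None of the 4 replacement genes was called different between the lines, where 19.8% of all genes were higher in CHLA9 and 13.9% in TC71. H3F3A, an H3.3 gene, stood at 2368 CPM in CHLA9 and 1706 CPM in TC71 (log2 -0.47), and H3F3B, the other H3.3 gene, at 1091 and 1138 CPM (log2 0.06). H2AFZ, encoding H2A.Z, stood at 1725 and 2098 CPM (log2 0.28), and H2AFX at 114 and 95.6 CPM (log2 -0.26). Levels of H3F3A, H2AFZ and H3F3B thus resembled that of HIST1H4C, and H2AFX that of the leading linker genes. Of 8 other replacement and variant genes, 7 could be tested, and H1F0, encoding the linker histone H1.0, was the 1 called, beside the same shares of all genes, at 116 CPM in CHLA9 and 25.7 CPM in TC71 (log2 -2.18). H2AFV, a further H2A.Z gene, was the most abundant of them, at 366 and 302 CPM.

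Timing in the cell cycle was read within each library. Each cell was given a phase from the published S and G2M gene lists with histone genes left out of the scoring, which gave 1037 G1, 1714 S and 1773 G2M cells in CHLA9 and 177, 900 and 652 in TC71. After thinning every cell to 5000 UMIs the shares were 27.4%, 34.6% and 38.0% in CHLA9, against 22.9%, 37.9% and 39.2% unthinned. In TC71 they were 17.1%, 48.4% and 34.5%, against 10.2%, 52.1% and 37.7%. The phase of a cell is a range of a score, and under other settings the number of TC71 cells in G1 ran from 147 to 440. Cells were also placed in 8 sectors of equal cell number by the angle of their scores, from G1 in sector 1 through S to G2M.

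Summed over the members, the level rose in S phase in both lines, with a larger ratio in CHLA9 and less than 2-fold in TC71. Their sum stood at 465 CPM (457 to 472) in G1, 3113 CPM (3100 to 3127) in S and 2361 CPM (2350 to 2372) in G2M cells of CHLA9, a log2 ratio of S to G1 of 2.74 (2.72 to 2.77) and of S to G2M of 0.40 (0.39 to 0.41). In TC71 it stood at 1216 CPM (1185 to 1247), 2207 CPM (2190 to 2224) and 1503 CPM, log2 ratios of 0.86 (0.82 to 0.90) and 0.55. With cells thinned to 5000 UMIs before phase scoring the log2 ratio of S to G1 was 2.03 in CHLA9 and 0.57 in TC71, so its size depends on the phase calls by more than the intervals show. By sector the sum was lowest in sector 1 and highest in sector 5, the last made up mainly of S cells, in both lines, rising from 431 to 5278 CPM in CHLA9, 12.2-fold, and from 1173 to 3245 CPM in TC71, 2.77-fold. It then declined to 895 CPM in sector 8 in CHLA9 and to 1291 CPM in sector 7 in TC71, where sector 8 stood at 1419 CPM. The difference in timing between the lines was not tested, and cyclin genes outside the phase lists were less steep in TC71 too. CCNE1, the cyclin of the G1 to S transition, had a log2 ratio of S to G1 of 2.11 in CHLA9 and 0.87 in TC71, and CCNB1, the mitotic cyclin, a log2 ratio of S to G2M of -3.13 and -1.75. In barcodes under the UMI minimum 0.0449% of UMIs came from members in CHLA9 and 0.0842% in TC71, and the part of free RNA in the levels of any phase was not tested.

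Counted by member, 38 of the 48 tested in CHLA9 were called higher in S than in G1, 79.2% against 2.19% of all 12586 genes tested outside the phase lists, and 0 lower. In TC71 it was 10 of 38, 26.3% against 0.512% of 12888 genes, and 0 lower. This TC71 count moved with the phase calls, to 16 with another seed for the control genes, 18 with an updated gene list, 16 without NASP, SLBP, CASP8AP2 and CHAF1B in the list and 3 with thinned cells. No share of all genes is given under these settings. The median log2 ratio of S to G1 was 2.13 over the members in CHLA9 and 0.90 in TC71, against -0.01 and 0.04 over all genes. Against G2M 1 of 48 members, HIST1H4A, was called higher in S in CHLA9 (all genes 0.728%) and 7 of 38 in TC71 (all genes 0.298%), with median log2 ratios of 0.37 and 0.68. In CHLA9 captured histone mRNA was thus still high in cells called G2M, whereas in TC71 the sum in G2M lay nearer to that in G1.

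In CHLA9 the steepest members of at least 5 CPM were linker and H3 genes. HIST1H1B stood at 14.3 CPM in G1 and 254 CPM in S (log2 4.15, 4.02 to 4.29), and by sector it ranged 42.4-fold, from 10.5 to 446 CPM. HIST1H3B, which encodes H3.1, rose from 0.822 to 10.9 CPM (log2 3.72, 3.17 to 4.34) and HIST1H1D from 15.7 to 202 CPM (log2 3.69, 3.56 to 3.82). HIST1H4C rose from 252 CPM in G1 to 2088 CPM in S, a log2 ratio of 3.05 (3.02 to 3.09), so the most abundant member was also cell cycle dependent. In TC71 the steepest members of at least 5 CPM were HIST1H1D, from 13.5 to 42.2 CPM (log2 1.64, 1.28 to 2.02), the H2B gene HIST1H2BF, from 2.66 to 8.15 CPM (log2 1.61, 0.81 to 2.54), and the H2A gene HIST1H2AH, from 5.12 to 13.8 CPM (log2 1.43, 0.85 to 2.08). HIST1H1B, the steepest in CHLA9, rose from 7.17 to 12.7 CPM in TC71 (log2 0.82). HIST1H4C stood at 802 CPM in G1 and 1518 CPM in S there (log2 0.92, 0.87 to 0.97), just short of 2-fold. Among members of at least 5 CPM in their line, 17 of 21 in CHLA9 and 12 of 19 in TC71 peaked in sector 5. No share of all genes is given for this peak, so the counts do not set the members apart.

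A few members stood no higher in S than in G1 cells. HIST1H2BD, an H2B gene, stood at 12.5 CPM in G1 and 6.63 CPM in S in CHLA9 (log2 -0.92, -1.12 to -0.72) and at 15.8 and 9.58 CPM in TC71 (log2 -0.72, -1.09 to -0.34), and it peaked in sector 1 in both lines. The H2A genes HIST1H2AC and HIST3H2A stood at 22.5 and 13.7 CPM in G1 and 18.1 and 10.1 CPM in S in CHLA9 (log2 -0.31 and -0.44), with log2 ratios of -0.37 and -0.34 in TC71. Their intervals lay below 0 in both lines, although none reached the 2-fold needed for a call. By sector HIST1H2AC still rose in CHLA9 from 14.2 CPM in sector 3 to 21.6 CPM in sector 5, below the 27.0 CPM of sector 1. HIST1H2BJ, the member with the largest difference in favour of TC71, was level across S and G1, with log2 ratios of -0.07 (-0.50 to 0.38) in CHLA9 and -0.26 (-0.66 to 0.15) in TC71. HIST1H2BH, far higher in CHLA9 than in TC71, rose by a log2 ratio of 0.59 there, at 17.1 CPM in G1 and 25.9 CPM in S.

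HIST1H2BD, HIST1H2AC, HIST3H2A and HIST1H2BJ all belong to the members annotated past the stem-loop, where fewer members were called and the sum rose less. In CHLA9 7 of 13 tested members annotated past the stem-loop were called higher in S than in G1, against 31 of 35 that end at it, and in TC71 1 of 14 against 9 of 24. Of all genes tested outside the phase lists, 2.19% were called so in CHLA9 and 0.512% in TC71. Summed, the members annotated past the stem-loop stood at 67.8 CPM in G1 and 89.6 CPM in S in CHLA9 (log2 0.40, 0.33 to 0.47) and at 155 and 152 CPM in TC71 (log2 -0.02, -0.13 to 0.09). The members that end at the stem-loop rose from 397 to 3024 CPM in CHLA9 (log2 2.93, 2.90 to 2.96) and from 1061 to 2055 CPM in TC71 (log2 0.95, 0.91 to 0.99). Without HIST1H4C the latter had log2 ratios of 2.69 in CHLA9 and 1.05 in TC71. The former rested largely on HIST1H2AC, HIST3H2A and HIST1H2BD, without which, a choice made after the values were seen, they stood at 19.1 CPM in G1 and 54.8 CPM in S in CHLA9 (log2 1.52, 1.40 to 1.65) and at 72.9 and 91.4 CPM in TC71 (log2 0.32, 0.17 to 0.49). Over the tested members the median log2 ratio was 1.42 past the stem-loop and 2.36 at it in CHLA9, and 0.27 and 1.30 in TC71. The division was not strict. HIST2H2BF, annotated past the stem-loop, had log2 ratios of 2.83 in CHLA9 and 1.19 in TC71, both called, while the H2B genes HIST1H2BH and HIST1H2BK, which end at it, were not called in CHLA9, at 0.59 and 0.78. HIST3H2BB, also annotated past the stem-loop, had 1.42 in CHLA9, called, and 2.89 in TC71, not called, with 70 UMIs in that line. HIST2H2BF, HIST3H2BB and HIST1H2BK were named after their values were seen.

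**Figure D4:**
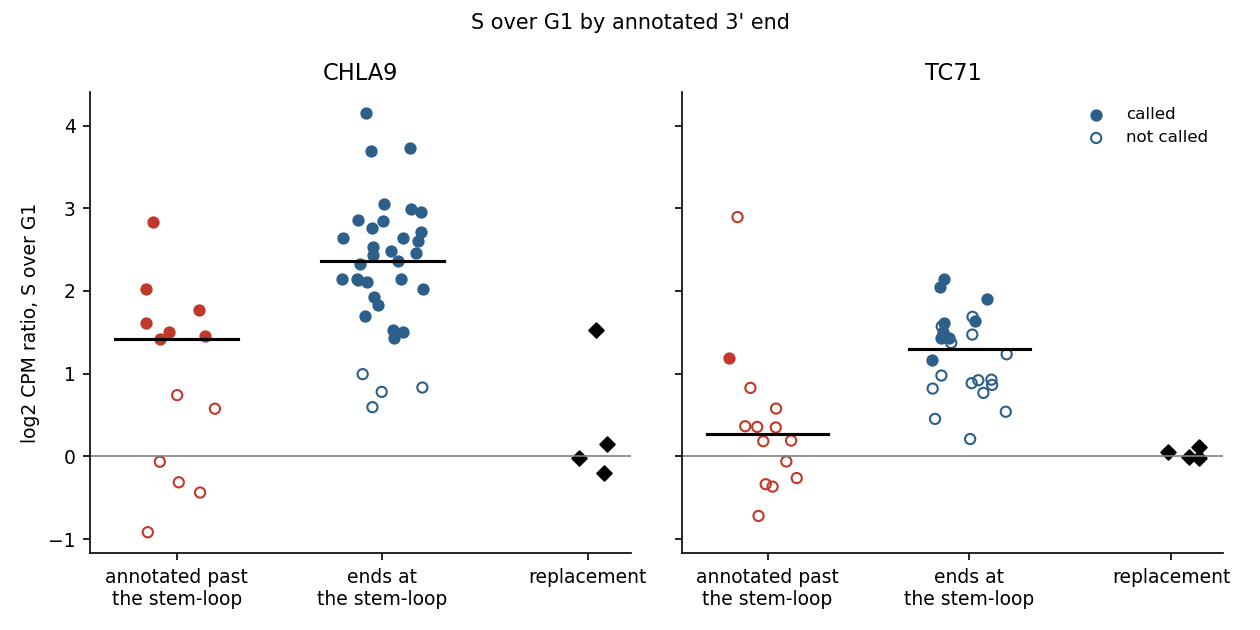
log2 ratio of CPM in S to CPM in G1 cells in CHLA9 and TC71 for the members tested, divided by annotated 3′ end (filled circles called higher in S, open circles not called, horizontal bars medians), beside the 4 replacement genes (diamonds, calls not shown). The medians are 1.42 and 2.36 in CHLA9 and 0.27 and 1.30 in TC71, and in CHLA9 the replacement gene above 1 is H2AFX.

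The replacement genes changed little between G1 and S apart from H2AFX in CHLA9. H3F3A stood at 2469 CPM in G1 and 2429 CPM in S in CHLA9 (log2 -0.02) and had the same log2 ratio of -0.02 in TC71. For H2AFZ the log2 ratio was 0.15 in CHLA9 and 0.05 in TC71, and for H3F3B -0.20 and -0.01. H2AFX stood at 35.4 CPM in G1, 102 CPM in S and 158 CPM in G2M cells of CHLA9, with a log2 ratio of S to G1 of 1.53 (1.44 to 1.62), and at 72.1, 77.8 and 122 CPM in TC71 (log2 0.11, -0.05 to 0.28). It was called higher in S than in G1 in CHLA9, yet its peak lay in sector 7 there and sector 6 in TC71, later than the sector 5 of most members. Of the other variant genes 6 could be tested in CHLA9 and 7 in TC71, with 0 called higher in S, where 2.19% and 0.512% of all genes were.

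**Figure D5:**
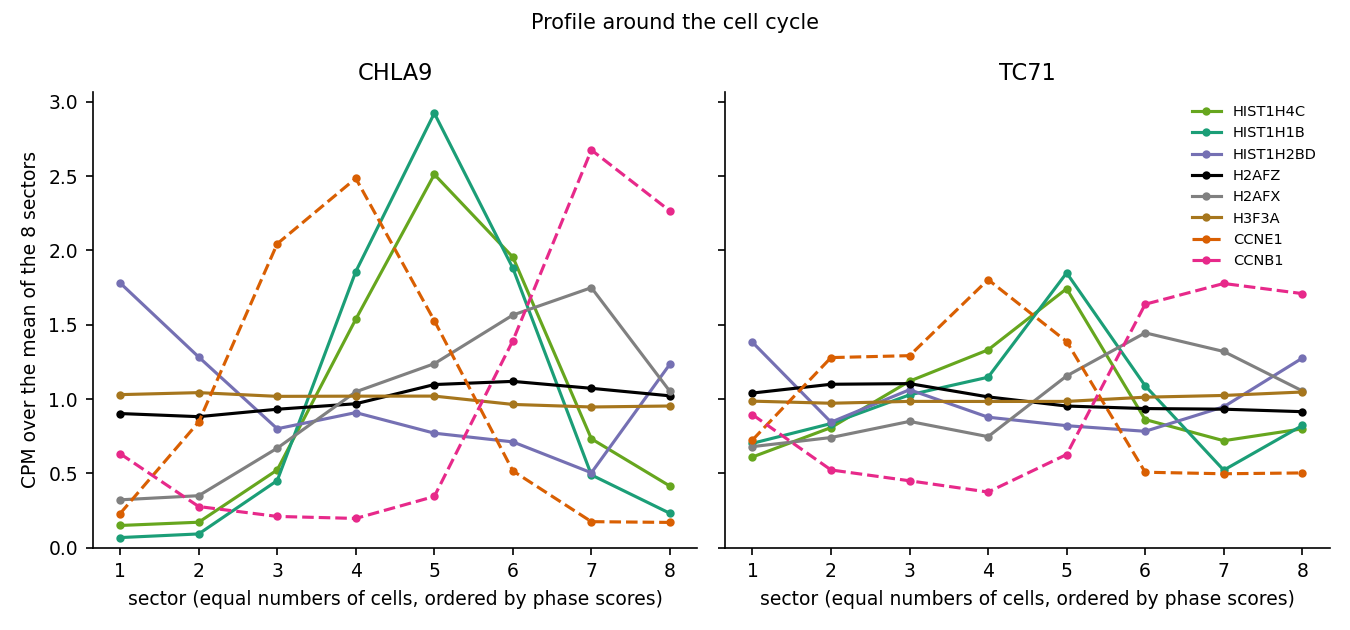
Profile of 3 members, 3 replacement genes and 2 cyclin genes (dashed) over the 8 sectors of the cell cycle in CHLA9 and TC71, as CPM in the sector over the gene's mean of the 8 sectors, with sector 1 mostly G1 and each sector holding equal numbers of cells. HIST1H4C and HIST1H1B peak in sector 5 in both lines, after CCNE1 in sector 4 and before CCNB1 in sector 7, and HIST1H2BD peaks in sector 1.

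The genes whose sector profile was most like the members' sum were ranked among 5284 genes of at least 20 CPM in both lines, by the lower of the correlations over the 8 sectors in CHLA9 and TC71. The first was CDCA4, a gene linked to cell cycle progression, with r of 0.96 in CHLA9 and 0.95 in TC71, and the second SUPT16H, a subunit of the histone chaperone FACT, with 1.00 and 0.94. CTNNAL1, ZC3H18, DNMT1, DEK, PARP2, SRSF4, PPM1G and NSL1 completed the 10, down to a lower r of 0.89. DNMT1 encodes the maintenance DNA methyltransferase and DEK a chromatin protein. All 10 peaked in sector 5 in CHLA9, and in TC71 9 did, with ZC3H18 in sector 4. The ranking itself favours this peak, since the members' sum was highest in sector 5 in both lines. The range of these 10 genes was shallow beside that of the members, 1.42-fold for SUPT16H and 3.03-fold for CDCA4 in CHLA9 against 12.2-fold. H2AFZ had r of 0.72 in CHLA9 and -0.05 in TC71.

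Cells of a line differed widely in captured member mRNA. With every cell thinned to 5000 UMIs, the members had a mean of 10.5 UMIs and a variance over mean of 13.0 across CHLA9 cells, and 8.82 UMIs and 7.95 across TC71 cells, where counting error alone gives 1. H3F3A, captured at a like mean of 12.1 UMIs in CHLA9 and 8.68 in TC71, had a variance over mean of 1.31 and 1.35, and H2AFZ of 1.38 and 1.34. The 10% of cells with the most held 32.7% of member UMIs in CHLA9 and 29.1% in TC71, against 16.1% and 17.7% for H3F3A. Within S cells alone the variance over mean of the members was 9.28 in CHLA9 and 6.22 in TC71, well above that of H3F3A in the same cells (1.34 and 1.30), so cells given the same phase still differed. In full-depth cells the members' share had a median of 0.0585% in CHLA9 and 0.107% in TC71, although the sum was higher in CHLA9. The lowest 10% of cells lay below 0.0210% in CHLA9 and 0.0238% in TC71, and the highest 10% above 0.562% and 0.422%. A total of 2 CHLA9 and 4 TC71 cells had 0 member UMIs.

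The genes that supply and dispose of histone mRNA were described from fixed lists. Of 18 genes for transcription and 3′ end processing of histone mRNA, all tested, 3 were called higher in CHLA9 and 0 in TC71, where 19.8% and 13.9% of all genes were: CCNE1 at 8.27 CPM in CHLA9 and 3.98 CPM in TC71, ZNF473, a U7 snRNP component, at 10.4 and 4.56 CPM, and SRRT, the cap-associated ARS2, at 187 and 82.6 CPM. SLBP stood at 184 CPM in CHLA9 and 145 CPM in TC71 (log2 -0.34), and was not called. Of 9 decay genes, XRN1, a 5′ to 3′ exonuclease, was higher in TC71, at 25.3 CPM in CHLA9 and 52.4 CPM in TC71, whereas EXOSC10, an exosome subunit, was higher in CHLA9, at 129 and 60.7 CPM. Relative to the median gene CCNE1 and EXOSC10 fell short of 2-fold, at -0.90 and -0.93. LSM1, which binds decaying mRNA, led the decay list in TC71 and stood at 102 CPM in CHLA9 and 156 CPM in TC71. The median log2 ratio was -0.25 over the processing list and 0.05 over the decay list, against -0.20 over all genes tested.

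Of 14 polyadenylation genes, 1 was called higher in TC71 and 3 in CHLA9, where 13.9% and 19.8% of all genes were. NUDT21, a cleavage factor subunit that governs the choice of poly(A) site, was higher in TC71, at 41.7 CPM in CHLA9 and 93.8 CPM in TC71 (log2 1.17). Its partner CPSF6 was higher in CHLA9, at 186 and 76.8 CPM (log2 -1.28), as were CPSF4, at 35.8 and 17.6 CPM, and PCF11, at 80.7 and 39.5 CPM. CPSF4 and PCF11 fell short of 2-fold relative to the median gene, at -0.86 and -0.87. The poly(A) polymerase gene PAPOLA was the most abundant, at 250 CPM in CHLA9 and 428 CPM in TC71. The list's median log2 ratio was -0.61. Of 24 histone chaperone genes, 4 were higher in CHLA9 and 0 in TC71, beside the same shares of all genes: CHAF1A, the large subunit of CAF-1, at 149 and 73.7 CPM, RBBP4 at 354 and 174 CPM, HIRA at 42.4 and 18.6 CPM, and SRCAP at 6.51 and 3.20 CPM. Relative to the median gene HIRA alone of these was past 2-fold, at -1.03, and the chaperone gene ASF1A passed it towards TC71, at 1.03. NAP1L1 led the list in TC71, at 1072 CPM in CHLA9 and 1081 CPM in TC71, whereas NASP led it in CHLA9, at 1193 and 619 CPM. The median of this list was -0.48. In timing, genes that are themselves in the phase lists were left out, which removed CCNE2, CASP8AP2 and SLBP from the processing list and 5 chaperones. Of the rest, CDK2 and CCNE1 of the processing list and ASF1B and CHAF1A of the chaperones were called higher in S than in G1 in CHLA9, with log2 ratios of 1.01, 2.11, 2.20 and 1.02. None of the rest was called in TC71, and the decay and polyadenylation lists gave 0 timing calls in either line. Of all genes 2.19% were called higher in S in CHLA9 and 0.512% in TC71, so counts of 0 in lists of this size do not set them apart. The median log2 ratio of S to G1 was 0.10 over the decay list and 0.09 over the polyadenylation list in CHLA9 and 0.16 over each in TC71. Over the 15 processing genes outside the phase lists it was 0.09 and 0.15, while the genes left out had log2 ratios of 2.52 (CCNE2), 0.85 (SLBP) and 0.76 (CASP8AP2) in CHLA9. Most genes of these lists thus changed less between G1 and S than most members did.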

How the data were processed

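The single-cell RNA-seq libraries of CHLA9 and TC71, which are Ewing sarcoma lines, were analysed, with 1 library per line. The deposited matrices hold UMI counts per gene and barcode that the authors made with Cell Ranger 3.1.0 on hg38. The CHLA10 line and patient-derived xenografts were not analysed here. Barcodes were used if they reached 5000 UMIs and 2000 genes and had no more than 15% mitochondrial UMIs, with a median of 34656 UMIs in CHLA9 and 33370 in TC71. Scrublet in scanpy 1.11.5 called 274 of these cells doublets in CHLA9 (6.06%) and 12 in TC71 (0.694%), and they were left in. The libraries shared 16 barcodes, 3 of them among the cells used.

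Counts were summed over the cells of a line, phase or sector and given as CPM (numpy 2.4.6, scipy 1.17.1, pandas 2.3.3, Python 3.11.15, matplotlib 3.10.9). Levels have exact 95% Poisson intervals and shares Clopper-Pearson intervals. Intervals of ratios are exact conditional intervals, made from the Clopper-Pearson interval of a count's share in the sum of both counts. A gene was called different at 2-fold or more with intervals apart and at least 1 CPM in one group. Tested on simulated data with 4-fold changes planted in 200 of 12448 genes, this recovered 100% of them and called 0% of the unchanged genes, which covers counting error alone and neither changes near 2-fold nor variation between cultures. Cell cycle phase was scored with Seurat 5.3.0 in R 4.3.3 from 42 S and 51 G2M genes, among 17268 genes in CHLA9 and 15459 in TC71 detected in at least 10 cells (seed 1), with histone genes and CENPA left out. The angle of both scores gave 8 sectors of equal cell number.

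Stem-loops and annotated 3′ ends were read with pysam 0.24.0 from GRCh38 and GENCODE 44, which is not the authors' annotation, and near-identical gene copies remain uncertain in the counts. Named members were, by rule, the 12 with the highest mean CPM and the leading gene of each histone. Among members of at least 5 CPM they were also the 5 with the largest difference each way between the lines and the 3 with the highest and the lowest ratio of S to G1 in each line. The 10 genes with the most similar sector profile and members with 0 UMIs were named too. Further members, such as those near the limit in TC71 and their neighbours, were named after their values were seen. These rules, the lists and most alternatives were set before the data were examined for this report, but with earlier results from these data known. Alternatives changed the cell filters, doublet removal, the scaling, the fold and CPM limits, the leading member and the phase genes, seed and depth.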

Additional observations from a re-analysis of the deposited data

Results flagged for a closer look

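Barcodes under the minimum of 5000 UMIs were not used in any comparison, yet they held replication-dependent histone UMIs above the limit that a count of 0 allows. In CHLA9 277 such barcodes, with a median of 2530 UMIs, held 324 member UMIs, or 0.0449% of their 721024 UMIs (95% interval 0.0402 to 0.0501). In TC71 5869 such barcodes, with a median of 1170 UMIs, held 7477 member UMIs, or 0.0842% (0.0823 to 0.0861). Both shares were below those of the cells used, 0.228% in CHLA9 and 0.184% in TC71. Whether these barcodes hold free RNA, damaged cells or small cells was not tested.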

How the results depend on the processing

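With 1 library per line, samples could not be paired or left out in turn. Of 130 alternative values, 67 stayed within the limits of the value reported and 63 moved beyond them. A reversal of direction could occur in the log2 ratios alone, since shares and counts have no sign. Each of these ratios kept its sign under every alternative. The median cell and single phases, described above, are not among the 130 values. The share limits are narrow counting intervals, so small shifts count as moves. The limits of member counts are wider and are not intervals. For members called higher in S than in G1 in TC71, 7 and 13 in place of 10 were taken as within them, and 3 and 16 as beyond. Members with at least 1 CPM numbered 48 in CHLA9 under each of 4 alternatives and 36 to 37 in TC71. Members called higher in CHLA9 ranged from 7 to 21, those called higher in TC71 from 4 to 11, and those called higher in S than in G1 in CHLA9 from 38 to 40. A minimum of 10000 UMIs per cell, run for levels and calls between the lines but not for timing, moved none of these values. The alternatives for members divided by annotated 3′ end were chosen after seeing the data, as was their timing sum without HIST1H2AC, HIST3H2A and HIST1H2BD and the calls among members with at least 1 CPM in both lines, given above.

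Leaving out cells beyond 3 median absolute deviations, the member share was 0.227% in CHLA9 and 0.185% in TC71 (log2 -0.30), the log2 ratio of S to G1 2.86 in CHLA9 and 0.81 in TC71, and of S to G2M 0.61 in TC71. With at most 10% mitochondrial UMIs the shares were 0.232% and 0.174% (log2 -0.42), 1 member that ends at its stem-loop was higher in TC71, and the log2 ratios were 2.85 (S to G1) and 0.38 (S to G2M) in CHLA9 and 1.00 and 0.68 in TC71. Without the 8% of cells with the highest Scrublet scores the TC71 share was 0.182% (log2 -0.33), with 3.15 and 0.42 in CHLA9 and an S to G2M ratio of 0.61 in TC71.

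The mean of each cell's own share was 0.210% in CHLA9 and 0.176% in TC71 (log2 -0.26). Without HIST1H4C the shares were 0.0721% and 0.0567% (log2 -0.35), and the ratios of S to G1 and S to G2M 2.27 and 0.59 in CHLA9 and 0.74 and 0.62 in TC71. With mitochondrial UMIs out of the total the shares were 0.247% and 0.202% (log2 -0.29). Relative to the median gene the family's log2 ratio was -0.15, and 0 members annotated past the stem-loop were higher in CHLA9. At 1.5-fold 11 members were higher in TC71, 8 annotated past the stem-loop and 3 that end at it. In CHLA9 21 were higher, 1 and 20 of them in these groups. With at least 5 CPM 7 members were higher in CHLA9, 0 annotated past the stem-loop and 7 that end at it, since fewer genes were tested.

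Phase scoring moved ratios in both lines, and the number of members called higher in S moved beyond its limits in TC71 alone. Ratios of S to G1 and S to G2M were 2.83 and 0.36 in CHLA9 and 0.67 and 0.51 in TC71 with all genes scored, and 2.79 and 0.38, and 1.09 and 0.53, with the updated list, which gave 18 members higher in S than in G1 in TC71 in place of 10. Without NASP, SLBP, CASP8AP2 and CHAF1B they were 2.77 and 0.41 in CHLA9 and 1.03 and 0.62 in TC71, with 16 members. Histone genes in the scoring gave an S to G2M ratio of 0.58 in TC71. Another seed gave 1.03 and 0.57 in TC71, with 16 members. Cells thinned to 5000 UMIs gave 2.03 and 0.41 in CHLA9 and 0.57 and 0.68 in TC71, with 3 members. These counts of members have no share of all genes beside them. Apart from the count at 5 CPM, the cause was not tested.

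Depth limits the TC71 G1 group most: its 177 cells held 4881507 UMIs, so 3 UMIs there were worth 0.615 CPM, against 0.0913 CPM in CHLA9 G1 cells. With 1 library per line, the intervals hold no variation between cultures, and line, medium and sequencing differ together. The 3′ ends come from an annotation and not from reads, so priming inside transcripts and the ends of captured molecules were not measured. Captured levels do not give the level of histone mRNA that has no poly(A) tail.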
